A study of Rattus norvegicus with 8 samples.

Results

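The genes described here encode MHC class II antigen presentation and markers of myeloid cells in the intestinal epithelium of the rat: *Cd74*, *RT1-Da*, *RT1-Ba*, *RT1-Bb*, *Cd68*, *Tyrobp*, *Fcer1g*, *Ctss* and *Csf1r*. They were listed by name and by no rule on their values, though with earlier results of these data known. Every probe set annotated to them was taken. This gave 13 probe sets of the 31099 on the array, for 9 genes of the 14217 with a probe set of their own. All 9 genes passed the filter on low signal and were among the 9258 genes tested. The samples were cells loosened from the epithelium of the proximal small intestine, taken from Wistar rats aged 4 months, on 8 arrays in 4 groups of 2. The groups were tap water (TW), deep-sea water of hardness 1200 (DSW1200) and selenium water (SeW), each for 3 days, and water restriction (WR) for 12 h. The study's methods also speak of a longer water restriction in connection with its microarray data. SeW held sodium selenite in distilled water by the study's methods, so SeW and TW also differ in their base water. The labels name no ulcer-inducing treatment. Whether each array came from 1 animal or from a pool was not stated, so p-values measure only the spread between these arrays.

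MHC class II molecules are pairs of an alpha and a beta chain that show peptides taken up from outside the cell to CD4+ T cells. In the rat, RT1-D is the counterpart of human HLA-DR and RT1-B that of HLA-DQ. The invariant chain (CD74) guides newly made class II molecules to endosomes, where cathepsin S (CTSS) trims it away so that peptide can bind. In the small intestine both professional presenting cells and the epithelial cells themselves can make class II molecules, and the promoters of class II genes share short boxes that are read together by the RFX complex, NF-Y and the coactivator CIITA. The other 4 genes mark macrophages and related cells: *Csf1r* encodes the receptor for the growth factor of macrophages, *Cd68* a glycoprotein of their lysosomes, and *Tyrobp* and *Fcer1g* small adaptors through which many receptors of myeloid and natural killer cells signal.

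The class II genes are shown by sequence because they varied together from array to array, as described further on. In RefSeq on build GRCr8, *RT1-Da* spans chr20:4515393-4520387, *RT1-Ba* chr20:4577057-4581650 and *RT1-Bb* chr20:4598475-4604118. Promoter windows, which run from 250 bases before to 50 bases after a start site, were at hand for 7 of the 9 genes, with *Tyrobp* and *Fcer1g* not among them. That start site is the first base of the gene in *RT1-Ba*, *RT1-Bb* and *Cd68*, but lies 22 bases inside the gene in *RT1-Da*, 80 in *Ctss*, 135 in *Cd74* and 227 in *Csf1r*. The stretches below, from 150 bases before the start site of the window to 10 after it, come from chr20:4515265-4515424 on the plus strand, chr20:4576907-4577066 on the plus strand and chr20:4604109-4604268 on the minus strand, each read 5′ to 3′ in the direction of the gene. Capitals mark a CCAAT box in reverse orientation, the form of the Y box of class II promoters.
RT1-Da: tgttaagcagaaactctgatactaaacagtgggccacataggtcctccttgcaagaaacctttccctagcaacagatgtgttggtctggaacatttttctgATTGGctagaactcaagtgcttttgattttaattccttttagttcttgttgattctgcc
RT1-Ba: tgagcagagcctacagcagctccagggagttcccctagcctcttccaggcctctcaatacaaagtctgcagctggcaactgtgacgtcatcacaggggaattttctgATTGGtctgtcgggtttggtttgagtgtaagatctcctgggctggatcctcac
RT1-Bb: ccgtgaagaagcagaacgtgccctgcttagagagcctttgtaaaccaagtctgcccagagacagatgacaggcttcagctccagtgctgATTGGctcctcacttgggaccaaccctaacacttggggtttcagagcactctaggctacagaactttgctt
The reverse CCAAT box began 49 bases before the start site of the window in *RT1-Da*, 43 before it in *RT1-Ba* and 61 before it in *RT1-Bb*. All 3 windows held the longer run CTGATTGG across it. The run was read from these same 3 windows because they share it, so its presence in all of them is no test. It was found on either strand in 3.5% of 33469 promoter windows. Of 5 windows of *Cd74* and other class II genes, 2 held it (*RT1-Db1* and *RT1-DOa*). CCAAT alone, on either strand, was common: it was in all 7 windows of these genes, *Cd74*, *Cd68*, *Ctss* and *Csf1r* included, and in 37.5% of all windows. *RT1-Ba* also held TGACG on both strands, in overlapping matches 69 and 66 bases before the start. TGACG was in 21.2% of all windows and in no other window of these genes. GAGGAA, the core that PU.1 of myeloid cells reads, was found on either strand in *Cd74*, *RT1-Bb*, *Cd68*, *Ctss* and *Csf1r*, against 27.6% of all windows. A pair of GAAA runs with any 2 bases between them, a form of the interferon-stimulated element, was found in *Ctss* alone of the 7 and in 3.92% of all windows. A match is a run of letters in the window and says nothing of binding.

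Signal over all probe sets was brightest in SeW before normalization, with array medians of 11.1 and 10.6 against 4.3 to 9.0 on the other 6 arrays. The beta-actin 3′/5′ ratio, which rises with degraded or short-copied RNA, was 13.6 and 10.9 in SeW and 20.6 to 32.8 elsewhere. Values below are quantile normalized signal, differences are on the log2 scale of that signal with a floor of 1, and groups are said not to overlap when both arrays of 1 group lie above both of the other. The labelled tissue was borne out by epithelial markers: *Epcam* lay between 4163 and 4502 and the villus protein gene *Vil1* between 2700 and 3354 on the 8 arrays. *Ptprc*, which encodes the leukocyte antigen CD45, lay between 21.6 and 53.3, while *Cd3e* (T cells) and *Itgam* (myeloid cells) were too dim to test. Other markers of such cells were bright enough. Of 14 measured genes of T cells and intraepithelial lymphocytes 8 were tested, and of 32 of macrophages and dendritic cells 22 were. In such bulk samples, fewer cells of a type and less RNA per cell cannot be told apart.

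In *Cd74*, *RT1-Da* and *RT1-Ba*, the 2 arrays of WR and the 2 of DSW1200 stood further apart than any 2 group means did, and no class II gene passed the test. *Cd74* had signals of 2286 and 2322 in TW, 1544 and 2541 in DSW1200, 2115 and 2206 in SeW, and 2507 and 1864 in WR. Its lowest and its highest value were both in DSW1200. *RT1-Da*, the RT1-D alpha chain, had 1469 and 1599 in TW, 853 and 1620 in DSW1200, 1755 and 1630 in SeW, and 2078 and 1155 in WR. WR and DSW1200 each spanned both TW arrays, whereas SeW lay above TW by only 0.14 (SE 0.31, limma adjusted p = 0.845). *RT1-Bb*, the RT1-B beta chain, had 1045 and 900 in TW, 508 and 699 in DSW1200, 970 and 1019 in SeW, and 1246 and 605 in WR. By the probe set used, both DSW1200 arrays lay below TW and SeW. The difference from TW was −0.70 (SE 0.29, 95% interval −1.36 to −0.05), with an unadjusted p of 0.0374 and an adjusted p of 0.617 in limma, and SeW exceeded DSW1200 by 0.74 (SE 0.29, adjusted p = 0.198).

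*RT1-Ba*, the RT1-B alpha chain, varied most among these genes. Its brightest probe set, by the mean of log2 signal over the 8 arrays, gave 316 and 235 in TW, 166 and 638 in DSW1200, 652 and 627 in SeW, and 705 and 265 in WR. Both SeW arrays lay above both TW arrays, by 1.23 (SE 0.57, 95% interval −0.04 to 2.50, adjusted p = 0.269), a fold of 2.35, while WR and DSW1200 each had 1 array at or below the level of TW and 1 at that of SeW. The SD within groups was 0.86, larger than that of 95.7% of tested genes, against a median of 0.26 over all of them. With the beta-actin ratio as a covariate the SeW difference from TW became −1.04 (SE 1.25).

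**Figure D1:**
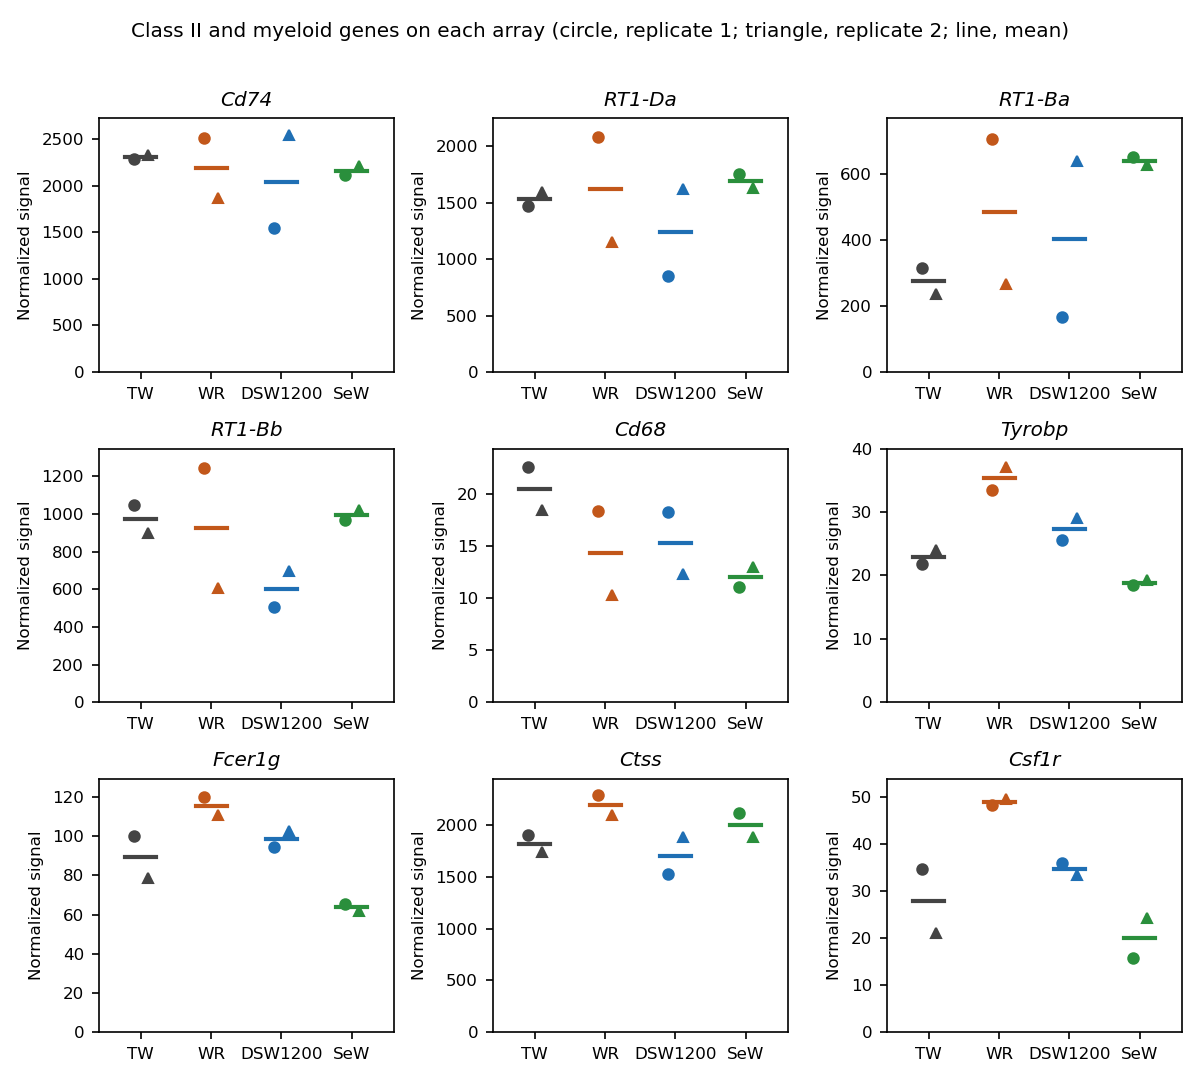
Normalized signal (y axis, linear, from 0) of each gene on the 8 arrays, by group on the x axis; circles are replicate 1, triangles replicate 2 and lines the mean of both. *Tyrobp*, *Fcer1g* and *Csf1r* have their 2 highest values in WR, and *RT1-Ba* ranges from 166 to 705 with both WR and DSW1200 split.

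The split had the same direction in further class II genes, which were picked out after the values had been seen. Of 8 genes (*Cd74*, *RT1-Da*, *RT1-Ba*, *RT1-Bb*, *RT1-Db1*, *RT1-DMa*, *RT1-DMb* and the coactivator gene *Ciita*), 8 were higher on WR replicate 1 than on WR replicate 2, and 8 were higher on DSW1200 replicate 2 than on replicate 1. Both held for 27.8% of the 9258 tested genes. *RT1-Db1*, the RT1-D beta chain, had 542 and 446 in TW, 306 and 550 in DSW1200, 530 and 491 in SeW, and 636 and 396 in WR. *RT1-DMa*, a chain of the molecule that loads peptide onto class II, had 290 and 262 in TW, 138 and 329 in DSW1200, 184 and 197 in SeW, and 186 and 163 in WR. *Ciita* had 42.7 and 39.1 in TW, 25.0 and 53.9 in DSW1200, 23.0 and 20.8 in SeW, and 31.9 and 17.9 in WR, so that its SeW arrays were low where those of *RT1-Ba* were high. Between the 2 arrays of DSW1200 the gap was 1.94 in *RT1-Ba*, 1.26 in *RT1-DMa*, 1.11 in *Ciita*, 0.93 in *RT1-Da*, 0.72 in *Cd74* and 0.46 in *RT1-Bb*. In TW and SeW the gaps were at most 0.42 and 0.15, both with 5 of the 8 genes higher on replicate 1. The summed signal of fibroblast and endothelial markers went with this split. It was 283 and 512 on replicates 1 and 2 of DSW1200, and 476 and 418 on those of WR. In WR most of the 10 tested markers did not. The widest gap in signal there was that of *Lum*, with 92.4 and 37.5 on replicates 1 and 2. Those that went the other way were *Dcn*, *Pdgfra*, *Vim*, *Pecam1*, *Vwf* and *Kdr* in WR, and *Vim*, *Vwf* and *Kdr* in DSW1200. The 3′/5′ ratios were higher on the array with the lower class II signal in both groups. That of beta-actin was 32.8 and 27.1 on DSW1200 replicates 1 and 2 and 21.1 and 24.8 on those of WR, and that of *Gapdh* 3.86 and 3.00 and 2.35 and 2.73. The part of these markers and ratios in the result was not tested.

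*Ctss* was steadier. It had 1898 and 1737 in TW, 1520 and 1883 in DSW1200, 2109 and 1877 in SeW, and 2286 and 2092 in WR. Both WR arrays lay above TW, by 0.27 (SE 0.15, adjusted p = 0.566), and above DSW1200, which differed from WR by −0.37 (SE 0.15, 95% interval −0.70 to −0.04, adjusted p = 0.841). Its SD within groups was 0.14, larger than that of 15.6% of tested genes.

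**Figure D2:**
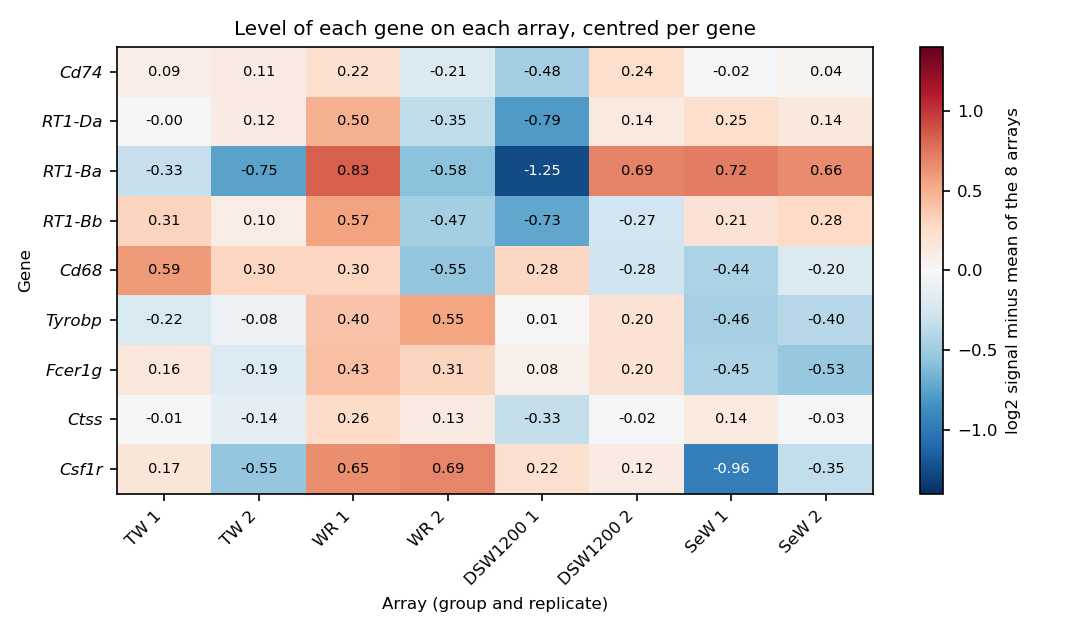
Log2 signal of each gene (rows) on each array (columns), minus that gene's mean over the 8 arrays; red is above the mean and blue below it. The class II rows are low on DSW1200 replicate 1 and WR replicate 2, and *Tyrobp*, *Fcer1g* and *Csf1r* are high on both WR arrays and low on both SeW arrays.

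The other probe sets of *RT1-Ba* and *RT1-Bb* followed the one used, which was the brightest by mean log2 signal, only in part. For *RT1-Ba*, 1377334_at read 259 and 147 in TW, 160 and 2136 in DSW1200, 232 and 323 in SeW, and 311 and 240 in WR. For *RT1-Bb*, 1371065_at read 469 on DSW1200 replicate 2 and between 1.0 and 7.4 on the other 7 arrays, 3 of which were at the floor of 1. On that array these were 6.61 and 63.1 times the next highest array. They were the only 2 of 4226 probe sets with a signal over 100 on that array that reached 5 times every other array, and each other array had 0 to 2 such probe sets. The probe sets used for the same genes, 1370822_at and 1371033_at, read 0.906 and 0.561 times the highest other array there. The SeW difference of *RT1-Ba* from TW was 0.49 by 1377334_at, 1.52 by 1381593_x_at and 2.08 by 1392334_at, against 1.23 by the one used. The last 2 are dim, between 4.0 and 24.9 on the 8 arrays, and the same sign came from all 4. For *RT1-Bb* the sign of the DSW1200 difference from TW depended on the probe set. It was 3.06 by 1371065_at, which rests on DSW1200 replicate 2, against −0.70 by the one used.

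**Figure D3:**
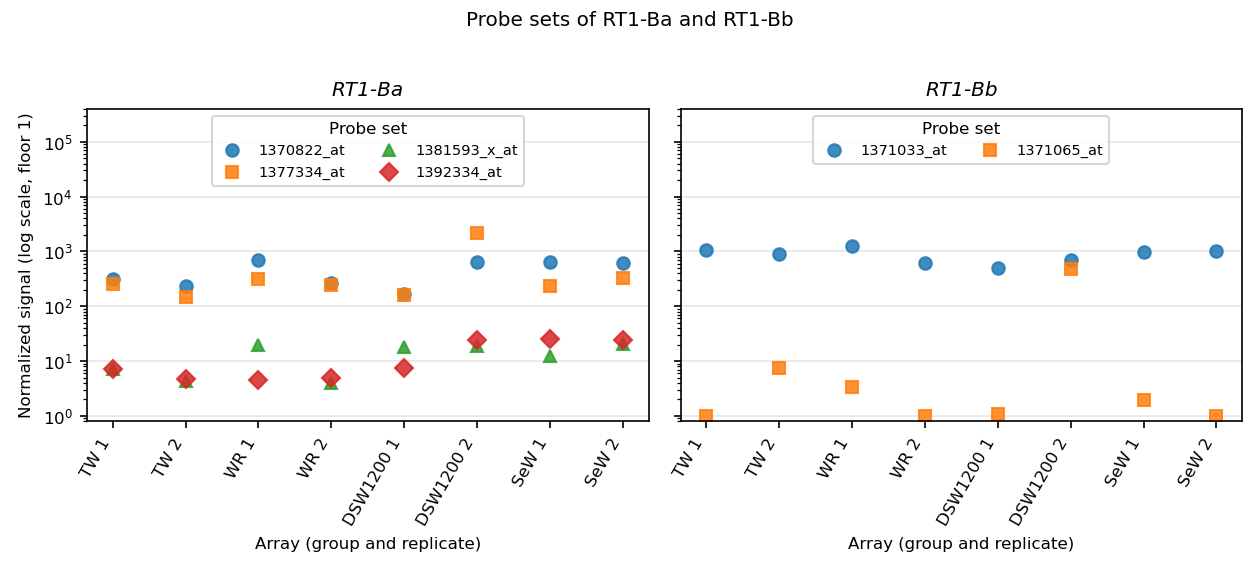
Normalized signal (log axis, floor 1) of the 4 probe sets of *RT1-Ba* and the 2 of *RT1-Bb* on each array. On DSW1200 replicate 2, 1377334_at reads 2136 and 1371065_at reads 469, apart from all other arrays, while the probe set used for each gene, 1370822_at or 1371033_at, does not stand apart.

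*Csf1r*, *Fcer1g* and *Tyrobp* had another order, with the mean highest in WR, then DSW1200, then TW, and lowest in SeW, an order that 5.12% of tested genes had. *Csf1r* had 34.6 and 21.1 in TW, 35.9 and 33.4 in DSW1200, 15.8 and 24.2 in SeW, and 48.3 and 49.5 in WR. WR lay above all other arrays, while TW overlapped both DSW1200 and SeW. *Fcer1g* had 99.9 and 78.5 in TW, 94.2 and 102.5 in DSW1200, 65.6 and 61.8 in SeW, and 120 and 111 in WR, so that SeW lay below all other arrays. *Tyrobp* had 21.8 and 24.0 in TW, 25.6 and 29.1 in DSW1200, 18.5 and 19.3 in SeW, and 33.5 and 37.2 in WR, with no overlap between any 2 groups. Its SD within groups, 0.10, was larger than that of 6.18% of tested genes.

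SeW and WR, the ends of that order, differed by −1.32 (SE 0.31, 95% interval −2.01 to −0.63) in *Csf1r*, by −0.86 (SE 0.19, −1.29 to −0.43) in *Fcer1g* and by −0.90 (SE 0.25, −1.46 to −0.34) in *Tyrobp*. WR was thus 2.50, 1.81 and 1.87 times SeW. The adjusted p-values in limma were 0.0805, 0.0734 and 0.125, so none passed 0.05. With the values as deposited, in which the median gene was higher in SeW than in WR by 0.52, the differences were −0.79, −0.27 and −0.37. They were −1.15, −0.62 and −0.73 with median centring. With an offset of 32 added to the signal they were −0.64, −0.62 and −0.40. The 3 genes stayed lower in SeW than in WR under every alternative in which they were fitted, and with the beta-actin ratio as a covariate the SE rose to 0.85, 0.53 and 0.69. *Csf1r* and *Fcer1g* passed with only the WR and SeW arrays in the fit (adjusted p = 0.0289 and 0.0290) or with either TW array left out. Without any 1 of the WR or SeW arrays neither passed, with adjusted p from 0.272 to 0.340 for *Csf1r* and from 0.238 to 0.433 for *Fcer1g*, and with the beta-actin covariate it was 0.979 for both.

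*Cd68*, the remaining myeloid marker, followed a different course. It had 22.6 and 18.4 in TW, 18.2 and 12.3 in DSW1200, 11.0 and 13.0 in SeW, and 18.4 and 10.2 in WR. Both TW arrays lay above the other groups, replicate 2 by little, with differences of −0.57 (SE 0.41) for WR, −0.44 (SE 0.41) for DSW1200 and −0.77 (SE 0.41) for SeW, and adjusted p-values of 0.652, 0.740 and 0.332.

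Over the 9 genes, 0 passed an adjusted p of 0.05 in any of 6 comparisons or in limma's F test over the 4 groups, where 3 (*Fcer1g*, *Csf1r* and *Tyrobp*) had an unadjusted p under 0.05. The F test called 0.616% of all tested genes after adjustment and 17.6% before it. An exact permutation test of 2 arrays against 2 cannot go below p = 0.333. Comparisons that contain TW share the TW arrays, and the same holds for each other group.

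**Figure D4:**
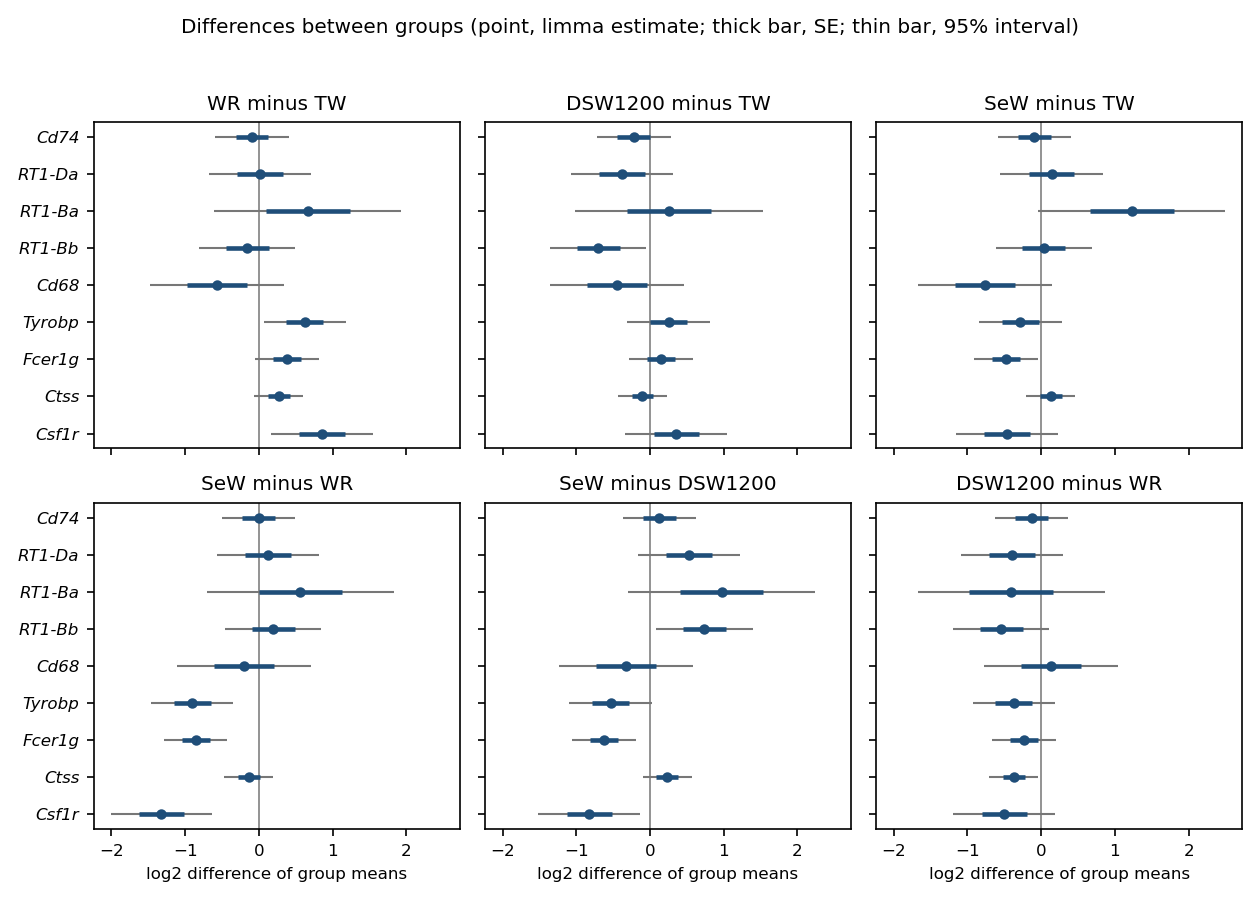
Log2 differences between group means (x axis) for the 9 genes in 6 comparisons; points are limma estimates, thick bars 1 SE and thin bars 95% intervals. The intervals of *Csf1r*, *Fcer1g* and *Tyrobp* lie below 0 for SeW minus WR, where the adjusted p-values are 0.0805, 0.0734 and 0.125, and the interval of *RT1-Ba* is the widest in every panel.

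Between WR and TW, *Csf1r* was higher in WR by 0.86 (SE 0.31, limma adjusted p = 0.477). There *Tyrobp* was higher by 0.62 (SE 0.25, limma adjusted p = 0.498) and *Fcer1g* by 0.38 (SE 0.19, limma adjusted p = 0.548). Without TW replicate 2 the differences were 0.50, 0.69 and 0.21, and without TW replicate 1 they were 1.21, 0.55 and 0.55. The first 2 of these had an unadjusted p under 0.05, against 9.70% of all tested genes, and 0.0108% of genes passed after adjustment. Of the 9 genes, 5 did not overlap, 4 of them higher in WR, against 39.7% of all tested genes. The median over the 9 genes was 0.27 and that over all tested genes −0.01.

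Between DSW1200 and TW, *RT1-Bb*, by the probe set used, was the 1 gene with an unadjusted p under 0.05, against 7.92% of tested genes. There 3 of the 9 genes did not overlap, against 35.9%. After adjustment 0% of tested genes passed in limma. The median of the 9 genes was −0.10 (all genes −0.02). Between DSW1200 and WR, 8 of the 9 genes had the lower mean in DSW1200, with a median of −0.37 (all genes −0.0047). *Ctss* alone had an unadjusted p under 0.05 there (0.0317), against 5.84% of tested genes, 4 genes did not overlap, against 35.6%, and again 0% of genes passed after adjustment.

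Between SeW and TW, *Fcer1g* was lower by 0.48 (difference −0.48, SE 0.19, adjusted p = 0.209) and was the 1 gene with an unadjusted p under 0.05, against 19.6% of tested genes. Of the 9 genes, 6 did not overlap, 4 of them lower in SeW, against 51.2% of all tested genes, and 1.91% of tested genes passed after adjustment. As deposited, all 9 genes were higher in SeW than in TW, where the median gene was higher by 0.92 and 6 of the 9 lay below that median. Between SeW and DSW1200, *Fcer1g* (−0.63, SE 0.19, adjusted p = 0.115), *Csf1r* (−0.82, SE 0.31, adjusted p = 0.178) and *RT1-Bb* had an unadjusted p under 0.05, against 20.0% of tested genes. There 5 of the 9 did not overlap, against 53.9%, and 2.72% of tested genes passed. Between SeW and WR the 3 genes named above were those with an unadjusted p under 0.05, against 16.5% of tested genes. The same 3 did not overlap, against 54.2%, and 1.23% of tested genes passed.

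Other markers of macrophages and dendritic cells had the direction of *Csf1r* between SeW and WR. Of 38 listed genes 32 were measured and 22 tested, 2 of which also stand in another list used here. The mean was lower in SeW for 21 of them, with a median of −0.76 against −0.04 over all tested genes, and 2 passed the test. These were *C1qa* and *C1qc*, chains of the complement starter C1q that tissue macrophages make. *C1qa* had 143.9 and 98.5 in TW, 110 and 153 in DSW1200, 54.5 and 68.1 in SeW, and 153 and 136 in WR, a difference between SeW and WR of −1.24 (SE 0.25, adjusted p = 0.0494). *C1qc* had 57.4 and 48.3 in TW, 46.9 and 48.9 in DSW1200, 26.6 and 33.4 in SeW, and 73.9 and 65.8 in WR, a difference of −1.23 (SE 0.22, adjusted p = 0.0425). Without any 1 of the WR or SeW arrays neither passed, with adjusted p from 0.209 to 0.272. *C1qb*, the remaining chain, had a difference of −0.83 (SE 0.25, adjusted p = 0.153). As deposited 15 of the 22 were lower in SeW and 21 lay below the median gene, and with the beta-actin ratio as a covariate 14 were lower.

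The summed signal of this list was 1277 and 771 in TW, 1196 and 1223 in DSW1200, 739 and 782 in SeW, and 1414 and 1311 in WR. TW replicate 2 thus lay with SeW. Between WR and TW 17 of the 22 genes had the higher mean in WR, but 12 did without TW replicate 2. Between DSW1200 and TW the count was 16, and 8 without TW replicate 2.

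Lists of other cells were set beside these. Of 8 tested markers of leukocytes of any kind, 8 had a lower mean in SeW than in WR (median −0.81) and 0 passed there in limma, with 6 at an unadjusted p under 0.05. *Arhgdib*, a gene expressed in blood cells, passed between SeW and TW (−1.30, SE 0.27, adjusted p = 0.0446; 0.0801 without TW replicate 1, 0.234 and 0.174 without either SeW array), while *Cd53* and *Lcp1* had −1.23 (SE 0.29) and −0.97 (SE 0.25) against WR. Of 8 tested genes of T cells and intraepithelial lymphocytes, 8 were lower in SeW than in WR (median −0.96) and 2 passed, the granzyme genes *Gzma* (−1.10, SE 0.21, adjusted p = 0.0464) and *Gzmb* (−1.65, SE 0.22, adjusted p = 0.0194). Neither passed without any 1 of the WR or SeW arrays. Of 10 fibroblast and endothelial genes 9 were lower in SeW than in WR (median −0.48), with 0 past the threshold and 0 at an unadjusted p under 0.05 in limma. Of 14 epithelial genes 13 were higher (median 0.21) and 1 passed, *Cldn7* of tight junctions (1.27, SE 0.21, adjusted p = 0.0400), though not without any 1 of the WR or SeW arrays. The summed epithelial signal was 38995 and 39977 in SeW and 33376 to 35297 on the other arrays. Between SeW and DSW1200 the lists ran the same way. A lower mean in SeW was seen in 20 of the 22 macrophage and dendritic cell markers. It was seen in 8 of 8 leukocyte, 8 of 8 T cell and 8 of 10 fibroblast and endothelial genes. Of 14 epithelial genes 13 were higher. *Gzma*, *Gzmb*, *Arhgdib* and *Cldn7* passed there (limma adjusted p = 0.0204, 0.0325, 0.0398 and 0.0235). With the beta-actin covariate 0 of all tested genes passed there. The part of cell composition and of the beta-actin ratio in the order of *Csf1r*, *Fcer1g* and *Tyrobp* was not tested.

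**Figure D5:**
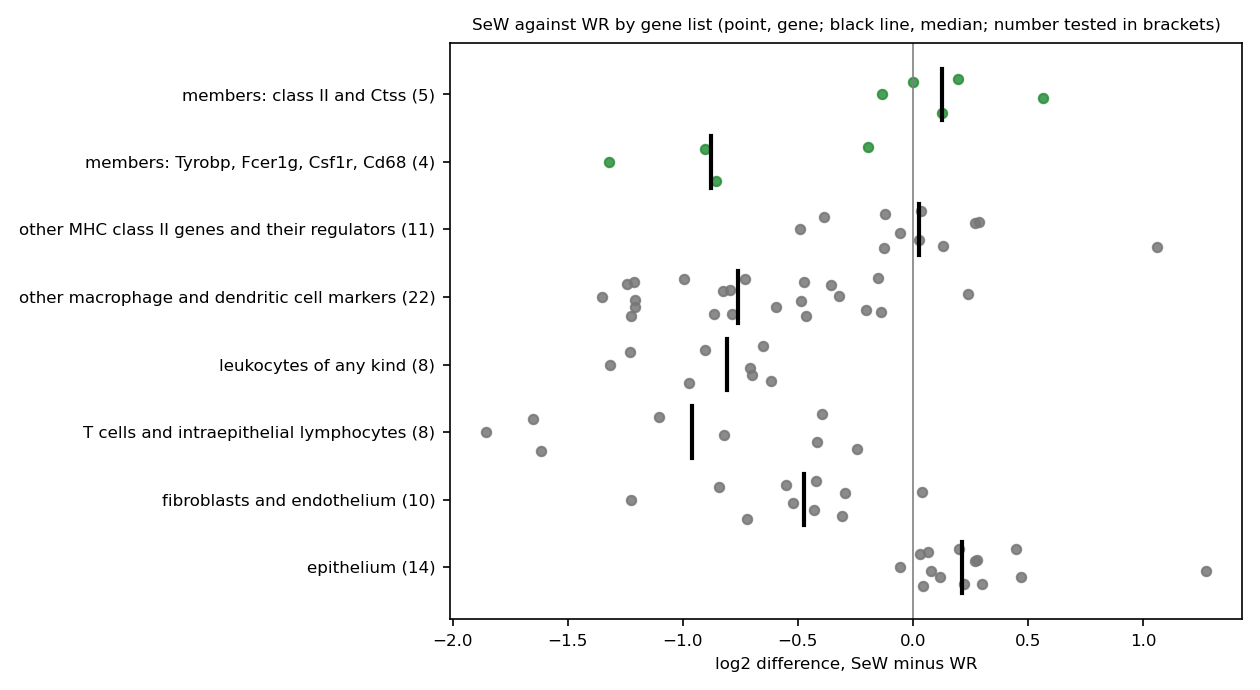
Log2 difference between SeW and WR for each tested gene (points) of 8 groups of genes, with the number tested in brackets and the median as a black line. The median is −0.76 for the other macrophage and dendritic cell markers, −0.96 for T cell genes and 0.21 for epithelial genes, and the class II genes lie about 0.

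Among the remaining genes of antigen presentation 1 passed between SeW and WR. Of 11 other class II genes and regulators, 6 were higher and 5 lower in SeW than in WR (median 0.02), with 0 past the threshold in limma and 1 at an unadjusted p under 0.05. *Nfyb*, *Nfyc* and *Rfxank*, which encode parts of the NF-Y and RFX complexes, had the smallest F test p-values. *Rfxank* had 53.0 and 51.7 in TW and 20.1 to 37.0 on the other arrays, a difference of SeW from TW of −1.03 (SE 0.33, adjusted p = 0.130). Of 11 tested genes of endolysosomal processing, 5 were higher and 6 lower in SeW than in WR, with 0 past the threshold in limma and 3 at an unadjusted p under 0.05, *Lamp1* having a difference of −0.52 (SE 0.15, adjusted p = 0.134). Of 17 tested genes of class I presentation 10 were higher and 7 lower and 1 passed, *Tap2*, a chain of the peptide transporter (1.5, SE 0.29, adjusted p = 0.0464), though not without any 1 of the WR or SeW arrays. The differences in this list ran from −5.06 to 1.5, the lowest being that of the class I gene *RT1-T24-4*, named here after its values were seen (adjusted p = 0.348). It had 18.6 and 1.1 in TW, 229 and 1.0 in DSW1200, 2.2 and 1.1 in SeW, and 410 and 6.5 in WR. It thus differed widely within WR, DSW1200 and TW. In DSW1200 its high array was replicate 1, not replicate 2 as in the class II genes above. *Psmb8*, a subunit of the immunoproteasome, differed between SeW and TW by −0.69 (SE 0.15, adjusted p = 0.0535). Of 10 tested genes of the interferon gamma response 7 were higher and 3 lower in SeW than in WR, and of 12 tested partners of the ITAM adaptors 4 were higher and 8 lower, with 0 passing in limma in either list and 2 in each at an unadjusted p under 0.05. *Syk*, the kinase that binds these adaptors, had −0.59 (SE 0.22, adjusted p = 0.214).

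Of the B and plasma cell genes 5 were tested, with 0 past the threshold in limma between SeW and WR and 0 at an unadjusted p under 0.05. *Jchain*, which encodes the joining chain of secreted IgA and IgM, had 397 and 9.8 in TW, 464 and 512 in DSW1200, 25.7 and 560 in SeW, and 417 and 710 in WR, so that the 2 arrays of TW and those of SeW stood far apart. Both mast cell genes tested, *Cpa3* and *Mcpt1*, had lower means in SeW than in WR, by −0.92 (SE 0.41) and −1.35 (SE 0.72), with adjusted p-values of 0.305 and 0.400. All 6 neutrophil genes measured were too dim to test.

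The 5 genes outside the list whose log2 profile over the 8 arrays was most like the mean standardized profile of the 9 genes were *Foxf1* (Pearson r = 0.92), *Apol11a* (0.90), *Med28* (0.90), *Gja5* (0.89) and *Cd247* (0.87). The arrays share their 4 groups and their normalization, and these coefficients are a description. *Foxf1*, a transcription factor of the gut mesenchyme, had 13.3 and 9.2 in TW, 9.1 and 13.9 in DSW1200, 8.9 and 8.9 in SeW, and 20.1 and 11.6 in WR. *Cd247*, the zeta chain of the T cell receptor complex, had 18.4 and 11.7 in TW, 10.1 and 22.1 in DSW1200, 12.9 and 12.6 in SeW, and 21.8 and 15.7 in WR. Both had the split within WR and DSW1200 that the class II genes had. The mean profile by which they were picked holds it too, so this is no separate observation. That profile was 1.12 and −0.06 on replicates 1 and 2 of WR, and −0.85 and 0.23 on those of DSW1200.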

How the data were processed

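Affymetrix rat arrays of 8 samples were analysed. The deposited values are linear signal intensity per probe set, made by the authors with MAS5 according to the submitters' processing notes; its version and scaling target are not given in the sources used here. The study's methods state quantile normalization, but the deposited intensity medians differ between arrays, so the arrays were quantile normalized here over 31099 probe sets, with a floor of 1 before log2. Of the probe sets, 20826 have 1 gene symbol, 436 several and 9831 none; those with several or none were left out. Each gene was represented by its probe set of highest mean log2 signal, and the test took in genes whose mean was above 6.69, which is the median signal over the probe sets.

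All 8 arrays entered 1 limma model (limma 3.58.1, R 4.3.3) without covariates, which left 4 residual degrees of freedom, with an intensity trend and Benjamini-Hochberg adjustment over 9258 genes at 0.05. The method was also run on simulated data with independent noise, of equal spread in all 4 groups. On these arrays the class II genes moved together within groups, so that run does not vouch for the results here. Sequences and motif positions come from RefSeq windows on GRCr8; matches were sought on both strands and positions counted from the start site of each window. With 2 arrays per group, their number limits the precision. The members and gene lists were chosen with earlier results of these data known. Genes named are the 9 members, up to 3 genes of each list with the smallest F test p, the 5 of most similar profile and, chosen after their values were seen, single markers and class II genes. Alternatives were median centring, the deposited values, an offset of 32, no filter on signal, a filter at 36.2, the mean of probe sets, every probe set, no trend, the replicate number as a block, the beta-actin ratio as a covariate, only the 4 arrays compared, each array left out and a 2-fold criterion. List counts under these settings were added after seeing the data.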

Additional observations from a re-analysis of the deposited data

How the results depend on the processing

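Under 19 alternatives, 1008 differences of the 9 genes were recomputed: 939 kept their sign, 69 changed it, 16 passed the threshold and 0 of those that passed had changed sign. Values as deposited, where SeW is brightest, called 4 genes between SeW and TW (*RT1-Da*, *RT1-Ba*, *RT1-Bb*, *Ctss*), 5 between SeW and DSW1200 (the same and *Cd74*) and 3 in the F test (*RT1-Ba*, *RT1-Bb*, *Ctss*), all against 0. Between SeW and WR, against 0, the stricter filter called 1 (*Fcer1g*, 6 genes fitted), only the 4 arrays compared called 2 (*Fcer1g*, *Csf1r*), and leaving out 1 array called 0 to 2, with 2 without TW replicate 1 or without TW replicate 2. The 2-fold criterion, with no test, held for 1 gene between SeW and TW (*RT1-Ba*) and 1 between SeW and WR (*Csf1r*). Over all tested genes, replicate numbers showed no sign of pairing: deviations of same-numbered arrays correlated between −0.06 and 0.04. The replicate block called 0 of the 9 genes in every comparison. The main fit did so too, so this count cannot tell whether samples were paired. Over all genes, calls between SeW and TW were 177, and ran from 0 with the beta-actin covariate to 4380 as deposited. For SeW and DSW1200 they were 252 (0 to 3738), for SeW and WR 114 (0 to 971), and for the F test 57 (0 to 2766). Between DSW1200 and TW they were 0, but 131 without TW replicate 1. Between WR and TW they were 1, but 219 without it. Between DSW1200 and WR they were 0 (0 to 5). With the block they were 114, 116, 19 and 22 for SeW and TW, SeW and DSW1200, SeW and WR, and the F test. Where an array was left out, the lone array of its group was assumed to vary like the other groups. Low signal limits *Cd68*, *Tyrobp*, *Csf1r* and the dim probe sets of *RT1-Ba*. *Cd68*, *Tyrobp* and *Csf1r* lay below the filter at 36.2.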
